A study of Saccharomyces cerevisiae with 12 samples.

Results

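RNA of *S. cerevisiae* cells lacking *COM2* was compared with RNA of the parental strain BY4741 while both were under SO2 stress. The comparison rests on 6 Affymetrix Yeast Genome 2.0 arrays out of 12 in the series, 3 of *com2*Δ cells and 3 of wild-type cells, all after 60 min in medium of pH 3.5 with 0.5 mM SO2. The other 6 arrays hold the same strains at the same pH and time without SO2, again with 3 arrays each. They serve here to show the strain difference without the stress. Since all 12 arrays were fitted together, they also enter the estimate of the spread, and thus the errors and calls with SO2. The parent, BY4741, is haploid, of mating type a and of the genotype his3Δ1 leu2Δ0 met15Δ0 ura3Δ0, and the mutant is a single deletion strain of the same background from a public collection, so the deletion cannot be told apart from any other difference that this 1 strain may carry. Both strains lack *MET17* (also called *MET15*) and were given methionine, leucine, histidine and uracil. The labels name the arrays of a group biological replicates. Each of 5667 features (5449 genes with a name, and 218 probe sets to which no gene is assigned) was tested, and 1001 of them (17.7%) were called different between the strains under SO2.

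Com2 (encoded by YER130C) is a C2H2 zinc finger protein related to the general stress factors Msn2 and Msn4. In acidic medium SO2 enters yeast cells by diffusion and dissociates in the cytosol to bisulfite and sulfite. Sulfite is also a normal intermediate of sulfate assimilation, in which sulfate is taken up, activated with ATP, and reduced to sulfite and then to sulfide, which is joined to O-acetylhomoserine to form homocysteine. The last of these steps is catalysed by Met17 and is missing in BY4741. The genes of this pathway are activated by Met4, with the DNA-binding proteins Cbf1, Met31 and Met32, when cells are short of cysteine and S-adenosylmethionine.

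Array medians were 1701 to 1750 in *com2*Δ cells and 1807 to 1868 in wild-type cells with SO2, in arbitrary units of intensity. In each strain, the second array with SO2 stood apart from the other two: it differed from them by a median absolute log2 difference of 0.216 and 0.169 in *com2*Δ cells and of 0.200 and 0.214 in wild-type cells, where the other pair differed by 0.113 and 0.112. Without both second arrays 544 features were higher and 623 lower in *com2*Δ cells, a choice made after the data were seen. The auxotrophy genes *LEU2*, *MET17* and *URA3*, absent from either strain, had intensities of at most 152 on all 12 arrays, and this value is used below as a mark of background. The markers of mating type a, *MFA1* and *STE2*, averaged 11140.0 and 10380.0 on the *com2*Δ arrays with SO2 and 19850.0 and 20750.0 on the wild-type arrays with SO2, while the α-factor gene *MF(ALPHA)1* lay below this background on all 6. The other α-cell genes measured did not all do so. *STE3* and *SAG1* lay above it on all 6, and *MF(ALPHA)2* had a geometric mean of 153 on the *com2*Δ arrays with SO2.

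The deleted gene was checked first. *COM2* had intensities of 19.2, 20.3 and 19.1 in *com2*Δ cells, against 2752, 2368 and 2496 in wild-type cells. All 3 mutant arrays lay below the background of deleted genes, and all 3 wild-type arrays lay far above it. The log2 difference was −7.02 (standard error 0.12, adjusted p = 1.74e-11 from limma). Where all 3 arrays of a strain lay at or below the background of deleted genes, as here, the fitted difference is set against a dim signal, and a lower bound of the fold was taken as the geometric mean of the brighter strain over 152. For *COM2* the bound was at least 16.7-fold lower. Of its 4 chromosome neighbours, *SAK1*, which encodes an activating kinase of Snf1, was called lower, at a log2 difference of −1.09 ± 0.15 (estimate ± standard error, as for every log2 difference written in this way), and without the first *com2*Δ array with SO2 it was −0.98 and no longer called. *RPS26B*, *PMD1* and *AST2* had log2 differences of 0.62, −0.86 and 0.34 and were not called.

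Under SO2, 432 features (7.62%) were higher and 569 (10%) were lower in *com2*Δ cells than in wild-type cells. Calls rest on limma and required a difference of 2-fold or more, p below 0.05 and a false discovery rate below 10%. The median log2 difference was 1.35 among the higher and −1.33 among the lower features, against −0.01 over all 5667, and 74 and 73 of them differed by at least 4-fold. Genes of sulfate assimilation, biotin synthesis, several amino acid pathways, mitosis and mating were among the lower ones, while genes of the pentose phosphate pathway, glucose phosphorylation, hypoxia, the general stress response and glycerol metabolism were among the higher ones. Each array holds the RNA of a whole culture, so fewer cells that express a gene and less RNA per cell cannot be told apart. The 3 *com2*Δ arrays did not overlap with the 3 wild-type arrays for 3783 features (66.8%), and 3530 features would have been called on a limma adjusted p below 0.05 alone, so the 2-fold limit sets most of the calls. With median centring of the arrays 535 features were higher and 492 lower, so that the larger direction turned.

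**Figure D1:**
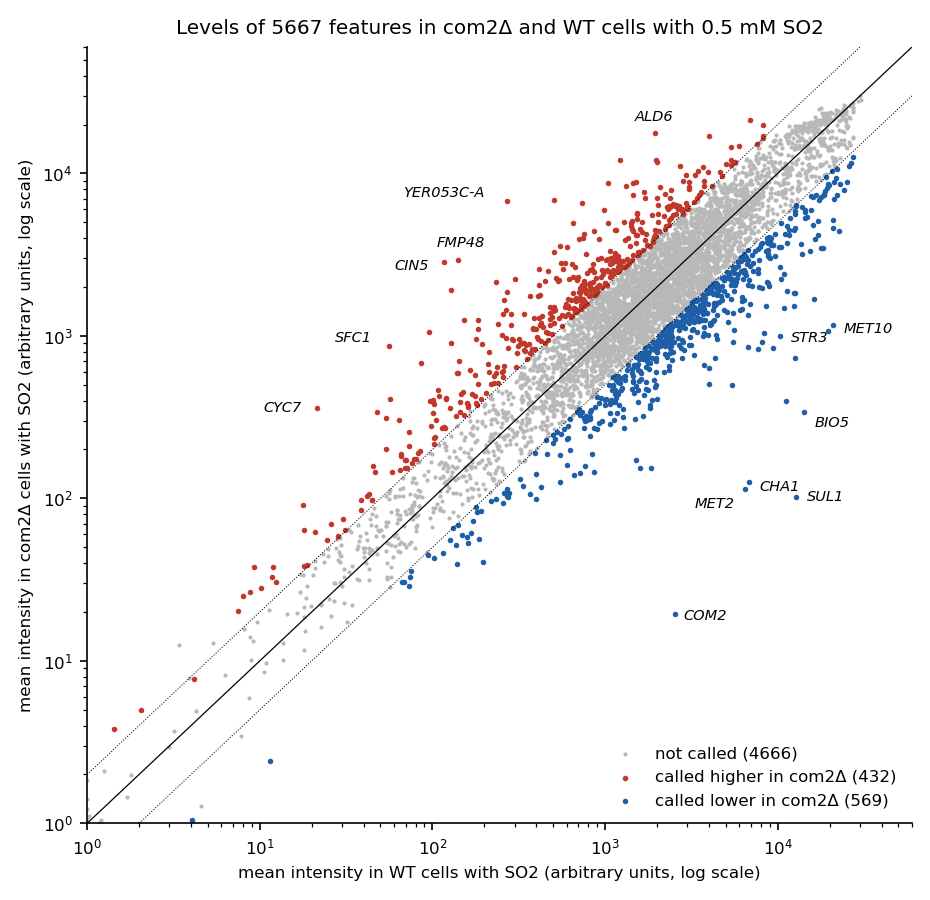
Mean intensity of each of the 5667 features in *com2*Δ cells with SO2 (vertical axis) against wild-type cells with SO2 (horizontal axis), both on a log scale in arbitrary units, with n = 3 arrays per strain. The solid line marks equal levels and the dotted lines a 2-fold difference of means; *SUL1*, *MET2*, *CHA1* and *BIO5* lie farthest below the line beside the deleted *COM2*, and *YER053C-A*, *CIN5* and *FMP48* farthest above it.

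The sulfate assimilation pathway was lower in *com2*Δ cells at every step measured. All 10 genes of uptake and reduction were called lower and none was higher, at a median log2 difference of −3.81 and a range of −7.01 to −1.36. *SUL1* and *SUL2* encode the sulfate permeases. *SUL1* had intensities of 112, 70.0 and 124 in *com2*Δ cells, against 11839, 13068 and 13596 in wild-type cells, and was thus at least 84.3-fold lower in the mutant (fitted log2 difference −7.01 ± 0.21, adjusted p = 1.71e-09 from limma). All 3 mutant values lay below 152, and none came near a wild-type value. *SUL2* gave 479, 334 and 383 in *com2*Δ cells, against 11585, 10727 and 11013 in wild-type cells, a log2 difference of −4.82 ± 0.15, with no overlap either.

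The enzymes that follow had similar differences. *MET3*, the ATP sulfurylase that activates sulfate, had intensities of 957, 685 and 878 in *com2*Δ cells, against 10039, 8425 and 9683 in wild-type cells (−3.49 ± 0.21). *MET14* and *MET16*, the adenylylsulfate kinase and the phosphoadenylylsulfate reductase, had log2 differences of −2.79 ± 0.13 and −3.06 ± 0.19. *MET5* and *MET10* encode the subunits of sulfite reductase, the enzyme that turns sulfite into sulfide. *MET5* had 1054, 1048 and 1104 in *com2*Δ cells, against 19594, 19296 and 19909 in wild-type cells, and *MET10* 1312, 940.2 and 1247 in *com2*Δ cells, against 21311, 20091 and 21332 in wild-type cells. Both pairs of ranges were far apart, with log2 differences of −4.198 ± 0.12 and −4.18 ± 0.19 (adjusted p = 1.71e-09 and 5.18e-08 from limma). *MET1* and *MET8*, which make the siroheme cofactor of this reductase, were lower as well, at −4.12 ± 0.15 and −2.54 ± 0.27, and *MET22*, the phosphatase that removes a nucleotide by-product of the pathway, at −1.36 ± 0.14. *MET8* averaged 145 in *com2*Δ cells, which is within the background of deleted genes.

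**Figure D2:**
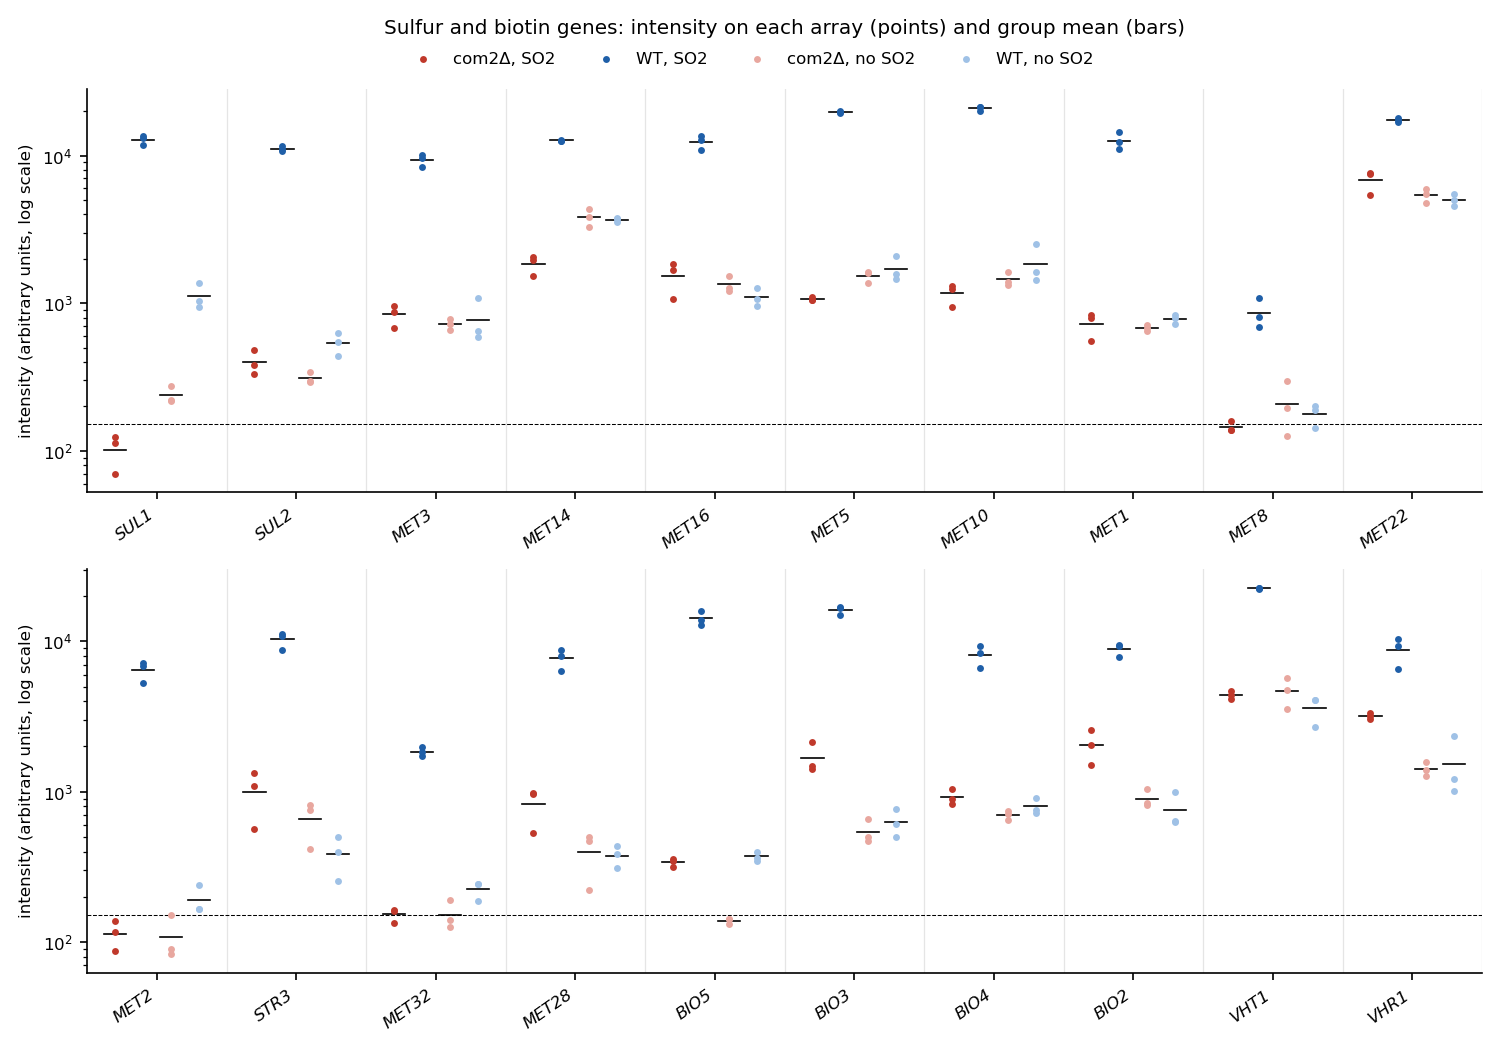
Intensity of 20 sulfur and biotin genes on each of the 12 arrays (vertical axis, log scale, arbitrary units), as points coloured by strain and condition, with bars at the group means (n = 3); the dashed line is the background of deleted genes, at 152. In all 20 genes the 3 *com2*Δ arrays with SO2 lie below the 3 wild-type arrays with SO2, and in *SUL1* and *MET2* all 3 *com2*Δ arrays with SO2 lie under the dashed line. Arrays of the strains with SO2 did not overlap for 66.8% of all features, and some genes shown were chosen by a rule that required this.

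Levels of *com2*Δ cells with SO2 were set beside those of both strains without it. With SO2, *SUL1* averaged 102 in *com2*Δ cells, against 12830.0 in the wild type, and without SO2 239 in *com2*Δ cells, against 1123 in the wild type. *MET10* averaged 1166 and 20910.0 with SO2, and 1454 and 1852 without it, in the same order of strains. For *MET10* the control levels of both strains thus lay close to that of *com2*Δ cells with SO2, and for *SUL1* the *com2*Δ level with SO2 was the lowest of the 4. Without SO2 the list had a median log2 difference of −0.10, and *SUL1* was its 1 called gene. The interaction, that is the strain difference with SO2 minus the one without it, was called downward for all 10 genes, at a median of −3.65.

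Beyond sulfide the differences were uneven. In the homoserine branch, *MET2*, the homoserine acetyltransferase that makes the acceptor of sulfide, had 138, 86.8 and 116 in *com2*Δ cells, against 6873, 5299.9 and 7213 in wild-type cells (at least 42.1-fold lower in the mutant, fitted −5.84 ± 0.25), and *MET13*, a methylenetetrahydrofolate reductase, had 938, 1019 and 1159 in *com2*Δ cells, against 8915, 8273 and 7754 in wild-type cells (−3.004 ± 0.34). These were the 2 genes called lower of 8 measured. *MET6*, the methionine synthase, and *HOM3*, the aspartate kinase, had −0.80 and −0.77 and were not called. Their arrays did not overlap between the strains, which held for 66.8% of all features. Around S-adenosylmethionine and transsulfuration, 5 of 9 genes were lower and none was higher (median −1.04). *STR3*, a cystathionine beta-lyase, gave 1341, 563 and 1088 in *com2*Δ cells, against 10919, 8829 and 11255 in wild-type cells (−3.46 ± 0.35), and *MHT1*, *STR2* and *SAM2* had −2.03 ± 0.13, −1.48 ± 0.21 and −1.31 ± 0.22. *MHT1* encodes an S-methylmethionine methyltransferase, *STR2* a cystathionine gamma-synthase and *SAM2* an S-adenosylmethionine synthetase. In the group of methionine salvage and polyamine synthesis none of 9 genes was called (median 0.36).

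Genes for the uptake of organic sulfur were lower too. Of 8 genes for the transport and use of organic sulfur compounds, 6 were lower and none was higher (median −1.64). *MMP1*, the S-methylmethionine permease, had 147, 205 and 163 in *com2*Δ cells, against 1248, 2029 and 1246 in wild-type cells (−3.11 ± 0.20), and *SAM3*, the S-adenosylmethionine permease, had 1572, 1434 and 1455 in *com2*Δ cells, against 11073, 11102 and 10588 in wild-type cells (−2.88 ± 0.10). *MUP3* and *YCT1*, permeases of methionine and cysteine, had −2.25 ± 0.18 and −1.81 ± 0.17. The high-affinity methionine permease gene *MUP1* had −0.21 and was not called. Neither gene of sulfite export was called: *SSU1*, which encodes the sulfite pump of the plasma membrane, had 13524, 9459.9 and 12699 in *com2*Δ cells, against 11280.3, 14255 and 12894 in wild-type cells (−0.12 ± 0.15), and *FZF1*, its activator, had −0.55 ± 0.11. The arrays of *SSU1* overlapped between the strains.

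Among 6 genes for the regulators of this pathway, 4 were lower and 1 was higher (median −1.17). *MET32* had 164, 134 and 162 in *com2*Δ cells, against 1722, 1835 and 1985 in wild-type cells (−3.596 ± 0.16), with the mutant arrays near the background of deleted genes. *MET28*, a partner in the Met4 complex, had −3.26 ± 0.32, *MET30*, the F-box protein that restrains Met4, −1.198 ± 0.18, and *MET4* itself −1.14 ± 0.12. *MET31*, whose product shares its binding site with Met32, went the other way, with 1875, 1549 and 1609.5 in *com2*Δ cells, against 569.9, 707 and 545 in wild-type cells. Its log2 difference was 1.47 ± 0.12 (adjusted p = 3.22e-06 from limma), and its arrays did not overlap. *CBF1* had 0.61 and was not called.

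Biotin genes formed a further group that was lower throughout, with 6 of 6 called and a median of −2.75. Biotin is the cofactor of carboxylases such as acetyl-CoA carboxylase. *BIO5*, the transporter of a biotin precursor, had 348, 355 and 318 in *com2*Δ cells, against 12870.2, 15877 and 13879 in wild-type cells, a 41.6-fold difference (−5.38 ± 0.10, adjusted p = 1.96e-11 from limma). *BIO3*, *BIO4* and *BIO2*, the enzymes of the last steps of synthesis, had −3.29 ± 0.19, −3.13 ± 0.14 and −2.16 ± 0.22. *VHT1*, the biotin permease, had 4128, 4366 and 4705 in *com2*Δ cells, against 22342, 22769.5 and 22646 in wild-type cells, and *VHR1*, the activator of *VHT1* and *BIO5*, −1.43 ± 0.27. The mutant and wild-type arrays did not overlap for any of the 6, which also held for 66.8% of all features.

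Amino acid synthesis was lower in several pathways. In lysine synthesis 6 of 9 genes were lower and none was higher (median −1.36), in the synthesis of branched-chain amino acids 9 of 12 (median −1.21), and in arginine synthesis 4 of 8 (median −1.04). *LYS4*, the homoaconitase, had 2135, 2089 and 2147 in *com2*Δ cells, against 8906, 7736 and 9708 in wild-type cells (−2.04 ± 0.17), and *LYS1*, the saccharopine dehydrogenase of the last step, −1.74 ± 0.34. *ARG8* and *ARG3*, an acetylornithine aminotransferase and the ornithine carbamoyltransferase, had −2.18 ± 0.16 and −2.01 ± 0.30, and *ARG2*, the acetylglutamate synthase of the first step, −1.86 ± 0.16. *LEU3*, the activator of leucine genes, had 949, 1063 and 1149 in *com2*Δ cells, against 3241, 3262 and 3723 in wild-type cells (−1.695 ± 0.13). *ILV2*, the acetolactate synthase, had −1.61 ± 0.17, *BAT1*, the mitochondrial branched-chain aminotransferase, −1.57 ± 0.32, and *OAC1*, a mitochondrial carrier, −1.41 ± 0.14. Both strains need leucine from the medium, since *LEU2* is deleted.

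Aromatic amino acids gave a contrast between breakdown and synthesis in counts. All 4 genes of transamination and breakdown were lower, with *ARO9* and *ARO10*, an aminotransferase and a phenylpyruvate decarboxylase, at −1.65 ± 0.16 and −1.56 ± 0.17, and *ARO8* and the regulator *ARO80* at −1.24 ± 0.16 and −1.101 ± 0.13. In synthesis 2 of 11 were lower (*TRP5* and *TRP4*, −1.21 ± 0.10 and −1.200 ± 0.23) and none was higher, although 10 of 11 had a value below 0. Histidine synthesis had 1 lower of 6 genes, *HIS7* (−1.09 ± 0.12). Calls in both synthesis lists came near the 17.7% of all features called in either direction. Whether breakdown and synthesis differ was not tested.

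*CHA1*, the deaminase of serine and threonine, had 113, 151 and 113 in *com2*Δ cells, against 7341, 5512 and 7605 in wild-type cells. All 3 mutant arrays of *CHA1* lay below the background of deleted genes, which gives at least a 44.4-fold lower level (fitted log2 difference −5.76 ± 0.23). Serine synthesis was divided. *SER3*, a phosphoglycerate dehydrogenase of the first step, was higher, with 19197, 14231 and 17429 in *com2*Δ cells, against 3976, 3748 and 4319 in wild-type cells (2.07 ± 0.11), while its isozyme gene *SER33* was lower, with 3928, 3078 and 3894 in *com2*Δ cells, against 9517, 8885 and 9949 in wild-type cells (−1.39 ± 0.12). *SER2*, the phosphatase of the last step, was higher at 1.51 ± 0.11. *MTD1*, a methylenetetrahydrofolate dehydrogenase, was higher too (1.42 ± 0.16). Among genes of serine, glycine and one-carbon metabolism, 3 of 12 genes were higher and 2 lower. The median of this list, −0.09, was 0.01 after quantile normalization.

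Amino acid permeases differed among themselves, with 3 of 17 higher and 2 lower. *TAT1*, a permease of valine, leucine, isoleucine, tyrosine and tryptophan, had 6352, 7269.6 and 6963 in *com2*Δ cells, against 463, 631 and 427 in wild-type cells (3.78 ± 0.17, adjusted p = 4.4e-08 from limma). The mutant arrays of *TAT1* lay at the level of both strains without SO2, whose means were 6572 and 6315. *GNP1* and *BAP3* were higher at 1.56 ± 0.12 and 1.33 ± 0.16, while *BAP2*, the paralogue of *BAP3*, was lower, with 4739, 5485 and 5618 in *com2*Δ cells, against 12929, 15912 and 14634 in wild-type cells (−1.46 ± 0.12).

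Genes of nitrogen control were mostly lower where called. In the list of ammonium uptake, assimilation and GATA factors 4 of 12 were lower and none was higher. The activator genes *GAT1* and *GLN3* had −1.98 ± 0.33 and −1.79 ± 0.13, *URE2*, the restraint on Gln3, −1.16 ± 0.10, and *GDH2*, the NAD-dependent glutamate dehydrogenase, −1.17 ± 0.14. *DAL80*, a GATA repressor, had 169, 107 and 186 in *com2*Δ cells, against 1529.7, 1089 and 2145 in wild-type cells (−3.35 ± 0.26). In the list of allantoin use, which also holds *DAL80*, *DAL3* was lower and *DCG1* and *DAL4* were higher (−2.02 ± 0.20, 1.55 ± 0.20 and 1.34 ± 0.29), and the other 7 of 11 members were not called. *PUT1*, the proline oxidase, was lower at −2.55 ± 0.22, and *CAR1*, the arginase, was higher, with 7136, 6721 and 8143 in *com2*Δ cells, against 1592, 1262 and 1529.8 in wild-type cells (2.33 ± 0.32).

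Metal-related lists held calls in both directions. *ZAP1*, the zinc-responsive activator, was the 1 lower gene of 7 in the zinc list, with 856, 954 and 867 in *com2*Δ cells, against 2703, 1924 and 2476 in wild-type cells (−1.39 ± 0.13). No other zinc gene was called, and this count came near the 17.7% of all features called in either direction. Of 13 genes of iron-sulfur cluster assembly 4 were lower, among them *IBA57* and *ISU2*, a maturation factor and a scaffold protein (−1.84 ± 0.13 and −1.46 ± 0.27), and 1, the J-protein gene *JAC1*, was higher (1.35 ± 0.19). In the iron uptake list 4 of 18 were higher, among them *TIS11*, an mRNA-destabilizing factor (1.97 ± 0.24), *SIT1*, a siderophore transporter (1.798 ± 0.14), and *HMX1*, the heme oxygenase (1.51 ± 0.35), and 2 were lower, of which *FIT1*, a cell wall mannoprotein, had −2.25 ± 0.18.

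In the list of multidrug and weak acid exporters and their regulators 8 of 14 genes were lower, none was higher, and all 14 had a value below 0 (median −1.08). Of the 8, *PDR3* and *WAR1* encode transcription factors. *PDR12*, the pump of weak organic acid anions, had 2914, 3606 and 3859.8 in *com2*Δ cells, against 17536, 19121 and 17107 in wild-type cells (−2.38 ± 0.17, adjusted p = 1.08e-06 from limma), and its activator *WAR1* had −1.48 ± 0.16. *YOR1* and *FLR1*, an ABC transporter and a major facilitator, had −1.96 ± 0.15 and −1.45 ± 0.12. *QDR2*, a further multidrug transporter outside the list and chosen after its values were seen, had 2961, 2969.8 and 3632 in *com2*Δ cells, against 13078, 14144 and 14519 in wild-type cells (−2.13 ± 0.11). None of these genes had a called strain difference without SO2, where only 0.706% of all features had one. Among 11 genes of Haa1 and its weak acid targets, in contrast, 3 were higher and none was lower: *AQR1*, a transporter of short-chain monocarboxylic acids, had 7790.3, 8000.5 and 7383 in *com2*Δ cells, against 1883, 1883 and 1285 in wild-type cells (2.22 ± 0.16), and *YRO2* and *SPI1* had 2.05 ± 0.22 and 1.55 ± 0.24. The proton pumps, with the plasma membrane ATPase *PMA1* and the vacuolar ATPase, held no called gene among 17 and a median of 0.05.

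Genes of membranes and wall were mostly below the wild type. Of 10 phospholipid and inositol genes 5 were lower and none was higher (median −1.04), with *INO2*, the activator of these genes, at 293, 428 and 281 in *com2*Δ cells, against 1453, 869 and 1217 in wild-type cells (−1.82 ± 0.27), and *PSD1*, *OPI3* and *INO1*, enzymes of phosphatidylethanolamine, phosphatidylcholine and inositol synthesis, at −1.42 ± 0.21, −1.27 ± 0.13 and −1.25 ± 0.26. In the cell wall list 7 of 20 were lower and 1 was higher (median −0.62). The mannoprotein gene *CWP1* was the higher one, with 3919, 4552 and 3545 in *com2*Δ cells, against 582, 1065 and 586 in wild-type cells (2.48 ± 0.25), and the glucan synthase gene *GSC2* and the structural gene *PIR3* were lower (−1.33 ± 0.12 and −1.44 ± 0.16). Ergosterol synthesis held 2 lower genes of 22, *ERG7* and *ERG8* (−1.502 ± 0.15 and −1.37 ± 0.12), near the 10% called lower among all features. In the autophagy list 8 of 34 were lower and 1 was higher (median −0.28). *ATG1*, the kinase that starts autophagy, had 478, 351 and 659 in *com2*Δ cells, against 5275, 5469 and 5681 in wild-type cells (−3.51 ± 0.21), and its partner *ATG13* had −1.65 ± 0.15.

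Cell cycle lists differed in their counts. The G2/M cluster, whose genes peak before mitosis, had 10 lower of 14, none higher, and a value below 0 in all 14 (median −1.18). *ALK1*, a haspin-like kinase, had 1660.2, 2289 and 2092 in *com2*Δ cells, against 7774, 7182 and 8489 in wild-type cells (−1.97 ± 0.13), and *CHS2* and *MYO1*, the chitin synthase of the septum and the myosin of the cytokinetic ring, had −1.54 ± 0.21 and −1.43 ± 0.17. Of 19 genes of G1/S transition and DNA replication 7 were higher and 1 was lower (median 0.64). *CDC21*, the thymidylate synthase, had 511, 774 and 493 in *com2*Δ cells, against 165, 113 and 139 in wild-type cells (2.08 ± 0.36), and *POL30*, the sliding clamp of replication, 1.93 ± 0.32. The lower gene was *PCL1*, a G1 cyclin of Pho85, at −2.19 ± 0.35. Genes of daughter separation and early G1 had 2 lower of 16, *NIS1* and *ASH1* (−1.204 ± 0.30 and −1.198 ± 0.19), none higher, and a value below 0 in 14 (median −0.57). These 2 calls came near the 10% called lower among all features. Subunits of ribonucleotide reductase in the DNA damage list were higher as well (*RNR2* 1.55 ± 0.17, *RNR4* 1.16 ± 0.17). The second *com2*Δ array had the highest mutant value of *CDC21*, *POL30* and *PCL1*. The histone genes, which are transcribed in S phase, held no call among 9 (median 0.07).

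Most mating genes of a cells were lower. Of 10 a-cell and pheromone response genes 7 were lower, none was higher, and all 10 had a value below 0 (median −1.23). *AGA1* and *AGA2*, which encode the a-agglutinin, had 716, 1064 and 798 in *com2*Δ cells, against 6034, 6598 and 7465 in wild-type cells and, for *AGA2*, 4192, 4215 and 4179 in *com2*Δ cells, against 16464, 15982 and 19138 in wild-type cells (−2.98 ± 0.20 and −2.03 ± 0.10). *FUS1* and *FAR1*, which act in cell fusion and in the pheromone arrest, had −1.59 ± 0.13 and −1.58 ± 0.22, and *SST2*, chosen after its values were seen, which dampens the pheromone signal, had −2.06 ± 0.15. *STE2* and *STE6* lay at the 2-fold limit, at −1.001 and −1.002. Genes of the opposite mating type were mixed: *STE3* was higher, with 809, 1084 and 784 in *com2*Δ cells, against 173, 243 and 166 in wild-type cells (2.21 ± 0.18), and *SAG1* was lower, with 498, 442 and 559 in *com2*Δ cells, against 1742, 2209 and 1933 in wild-type cells (−1.97 ± 0.15). *MF(ALPHA)2* was called higher at 1.11, with both strains near or below the background of deleted genes. With 16 added to each intensity it was not called (0.96), nor without the second *com2*Δ array with SO2.

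Genes higher in *com2*Δ cells were led by *YER053C-A*, a small reading frame of unnamed function, with 7792, 4593 and 7878 in *com2*Δ cells, against 201, 405 and 203 in wild-type cells (4.69 ± 0.47). *CIN5* (also called *YAP4*), a basic leucine zipper factor related to Yap1, had 3311, 1603 and 3649 in *com2*Δ cells, against 119, 98.3 and 133 in wild-type cells. All 3 wild-type arrays of *CIN5* lay below the background of deleted genes, so it was at least 17.7-fold higher (fitted 4.53 ± 0.30, adjusted p = 8.01e-07 from limma). Among the other 7 Yap genes, *YAP5* was lower (−1.91 ± 0.15) and *YAP1*, the factor of the oxidative response, had −0.59 and was not called. *FMP48*, a putative kinase, had 3008, 2415 and 3423 in *com2*Δ cells, against 124, 138 and 158 in wild-type cells (4.39 ± 0.20), and *IZH4*, a membrane protein linked to zinc, 3.88 ± 0.21. *HSP30*, a membrane heat shock protein that acts on the Pma1 ATPase, had 14132, 9714 and 12409 in *com2*Δ cells, against 1044, 1443 and 1198 in wild-type cells (3.29 ± 0.27), *BOP2* had 3.18 ± 0.25, and *YER187W* was at least 6.51-fold higher (fitted 3.37 ± 0.25). *GOR1*, a glyoxylate reductase, had 7572, 5123 and 6964 in *com2*Δ cells, against 732, 689 and 788 in wild-type cells (3.14 ± 0.16). *PHD1*, a regulator of filamentous growth chosen after its values were seen, had 4578, 4239.7 and 4474 in *com2*Δ cells, against 993, 659 and 949 in wild-type cells (2.38 ± 0.31).

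**Figure D3:**
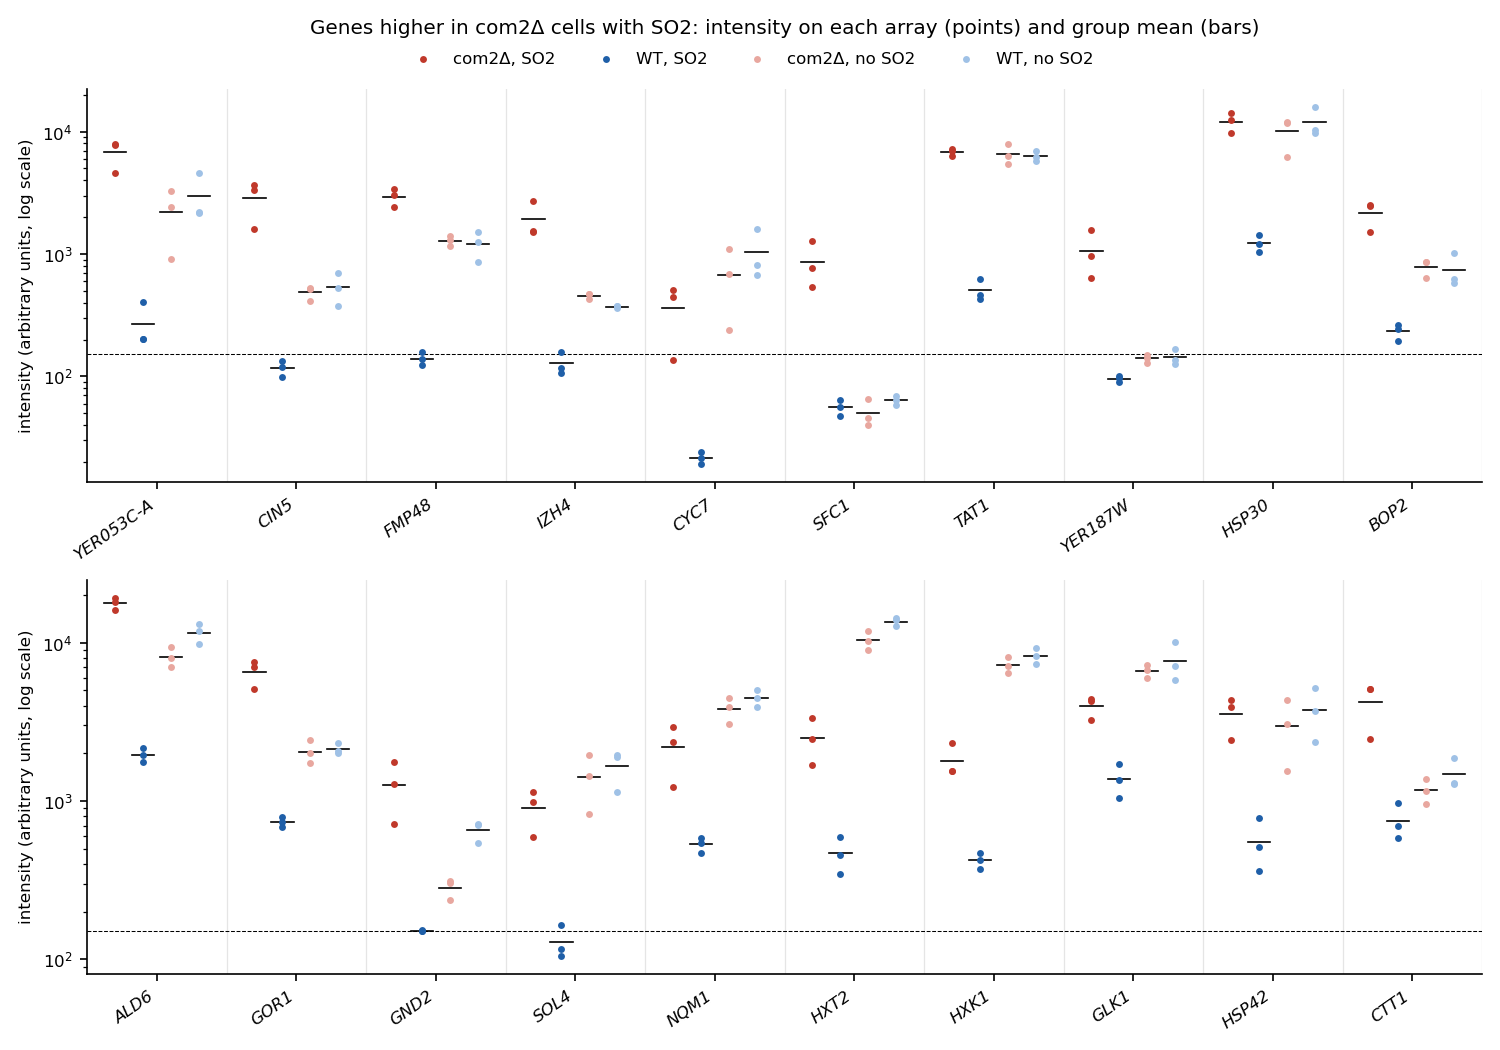
Intensity of 20 genes higher in *com2*Δ cells with SO2 on each of the 12 arrays (vertical axis, log scale, arbitrary units), as points coloured by strain and condition, with bars at the group means (n = 3); the dashed line is the background of deleted genes, at 152. The 3 *com2*Δ arrays with SO2 lie above the 3 wild-type arrays with SO2 in every gene shown. For the 12 highest genes this was fixed by the rule that chose them, and arrays did not overlap for 66.8% of all features. The arrays without SO2 lie near those of *com2*Δ cells with SO2 in *TAT1* and *HSP30*, near those of the wild type with SO2 in *SFC1*, and above both in *HXT2* and *HXK1*.

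The pentose phosphate pathway, which supplies NADPH, had 6 of 11 genes higher, 1 lower and a median of 1.07. *GND2* and *GND1*, the 6-phosphogluconate dehydrogenases, were both higher: *GND2* had 1758, 721 and 1286 in *com2*Δ cells, against 152, 150.1 and 154 in wild-type cells (2.95 ± 0.26), and *GND1* had 21909.6, 20556 and 21343 in *com2*Δ cells, against 7222, 6432 and 7225 in wild-type cells (1.61 ± 0.10). *SOL4*, a 6-phosphogluconolactonase, and *NQM1*, a transaldolase, had 2.79 ± 0.34 and 1.94 ± 0.27. In wild-type cells with SO2, *GND2* and *SOL4* averaged 152 and 128, at and below the background of deleted genes. *ZWF1*, the glucose-6-phosphate dehydrogenase of the first step, was the lower gene, with 1379.7, 1146 and 1163 in *com2*Δ cells, against 3789.6, 5535 and 3421 in wild-type cells (−1.76 ± 0.22, adjusted p = 4.94e-05 from limma). Its mutant arrays all lay below its wild-type arrays. *TAL1*, the other transaldolase, had 0.99 ± 0.11, just under the limit. *GND1* and *TAL1* were named after their values were seen. *GND1* and *GND2*, and *TAL1* and *NQM1*, are paralogues, and how far their probe sets take up each other's RNA is uncertain.

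Of 12 genes of acetaldehyde formation and removal 4 were higher and 1, *ALD5*, was lower (−1.07 ± 0.18). *ALD6*, the cytosolic aldehyde dehydrogenase, which also forms NADPH, had 19018, 15957 and 18099.8 in *com2*Δ cells, against 2147, 1759 and 1962 in wild-type cells (3.18 ± 0.14, adjusted p = 4.4e-08 from limma), and without SO2 the means were 8153 in *com2*Δ cells and 11570.0 in the wild type. *ALD4*, its mitochondrial counterpart, had 1.47 ± 0.15, *ADH2*, the alcohol dehydrogenase that oxidizes ethanol, 1.75 ± 0.20, and *PDC6*, a minor pyruvate decarboxylase, 1.198 ± 0.20. In glycerol metabolism 3 of 11 were higher and none was lower: *DAK2* and *GCY1*, a dihydroxyacetone kinase and a glycerol dehydrogenase, had 2.85 ± 0.30 and 2.602 ± 0.19, and *GPD1*, the glycerol-3-phosphate dehydrogenase of the osmotic response, had 7028, 6349 and 7875 in *com2*Δ cells, against 1820.2, 1942 and 2238 in wild-type cells (1.82 ± 0.28).

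Some genes of glucose entry and phosphorylation were higher in *com2*Δ cells. Of 12 genes of glucose sensing and hexose phosphorylation 4 were higher and none was lower, *HXK1*, *GLK1*, *HXK2* and *EMI2*, all of the hexokinase family (2.07 ± 0.17, 1.56 ± 0.22, 1.44 ± 0.10 and 2.43 ± 0.21). *HXK1* had 2306, 1537 and 1535 in *com2*Δ cells, against 372, 425 and 469 in wild-type cells, with control means of 7230.0 in *com2*Δ cells and 8272 in the wild type, so both strains with SO2 lay below both without it. Hexose transporters, whose near-identical sequences may be read together, had 3 of 15 higher and 1 lower. *HXT2* gave 1696, 3339 and 2460.5 in *com2*Δ cells, against 347, 593 and 459 in wild-type cells (2.402 ± 0.24), *HXT4* 1.25 ± 0.23 and *HXT11* 1.98 ± 0.41, the last below background in both strains. *HXT5* was lower (−1.07 ± 0.26) and fell short of the limit without either second array (−0.84 and −0.95). Of 13 glycolytic genes none was called and the median was 0.03, with 9 of the 13 reaching 20000 on at least 1 array with SO2, where the highest intensity of any feature was 30583. How far the top of the scale limits these differences was not tested.

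Single genes of mitochondria and of the hypoxic response were higher. *SFC1*, the succinate and fumarate carrier of the mitochondrial inner membrane, had 1282, 535 and 766 in *com2*Δ cells, against 55.8, 47.4 and 64.8 in wild-type cells (at least 5.31-fold higher, fitted 3.86 ± 0.28), and *MDH2* and *MDH1*, malate dehydrogenases, had 2.96 ± 0.26 and 1.85 ± 0.18. They were the 3 higher of 23 genes of the citrate and glyoxylate cycles and gluconeogenesis, where *ICL1*, the isocitrate lyase, was the 1 lower (−1.21 ± 0.25). *ICL1* was no longer called without the third wild-type array (−0.967) or the second *com2*Δ array (−0.954) with SO2. The calls in this list came near the 17.7% of all features called in either direction, and those of the respiratory chain below it. In both lists the share called higher was above the 7.62% of all features. In the respiratory chain 4 of 31 were higher and none was lower, led by *NDE1*, the external NADH dehydrogenase (2.54 ± 0.15), and *RIP1*, the Rieske protein (1.65 ± 0.15). *HAP4*, the activating subunit of the HAP complex, had 1824, 1503 and 1955 in *com2*Δ cells, against 335, 334 and 429 in wild-type cells (2.27 ± 0.19). It was the 1 called gene in the list of 5 HAP activators, whose median was −0.41, with 3 of the 5 below 0. Of 12 hypoxic genes 5 were higher and 1 was lower. *CYC7*, the hypoxic cytochrome c, had 509, 136 and 442 in *com2*Δ cells, against 21.4, 24.1 and 19.2 in wild-type cells (at least 2.06-fold higher, fitted 3.86 ± 0.58), with its second mutant array well below the others, *ANB1*, an eIF5A gene, 2.32 ± 0.21, and *ROX1*, the repressor of hypoxic genes, 9629, 8515 and 8429.6 in *com2*Δ cells, against 1879, 857 and 1777 in wild-type cells (2.64 ± 0.42).

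General stress genes, classical targets of Msn2 and Msn4, were higher for 10 of 21 and lower for none (median 0.93). Against the same strain without SO2, the list had a median log2 difference of −1.38 in wild-type cells and −0.12 in *com2*Δ cells. Higher thus means above the wild type with SO2, and for most of the list not above the cells without it. *CTT1* was an exception, with means without SO2 of 1165 in *com2*Δ cells and 1484 in the wild type. *CTT1*, the cytosolic catalase, had 5123, 2454 and 5085 in *com2*Δ cells, against 698, 584 and 970.2 in wild-type cells (2.45 ± 0.29), *HSP42*, a small heat shock protein, 4322, 2432 and 3901 in *com2*Δ cells, against 511, 361 and 782 in wild-type cells (2.72 ± 0.41), and *DDR2* and *PNC1* had 1.72 ± 0.23 and 1.97 ± 0.20. The second mutant array was the lowest of its group in *CTT1*, *HSP42*, *DDR2* and *PNC1*. *MSN2* and *MSN4* themselves had 0.17 and 0.04 and were not called. Of 17 chaperone genes 3 were higher, *CPR6*, *HSP82* and *SSA1* (1.44 ± 0.10, 1.298 ± 0.17 and 1.28 ± 0.19), the last at 0.995, just under the limit, without both second arrays and at 0.91 with array weights. Calls among the 17 came near the 17.7% of all features called in either direction, but all were higher, and 7.62% of all features were called higher. Thiol redox and antioxidant genes split, with 5 of 28 higher and 3 lower. *GRX2*, a dithiol glutaredoxin, was higher (1.55 ± 0.20), while *GRX4*, a monothiol glutaredoxin, had 2187, 2158 and 2391 in *com2*Δ cells, against 10314, 9499 and 11535 in wild-type cells (−2.22 ± 0.16), *MXR1*, a methionine sulfoxide reductase, −2.13 ± 0.11, and *GSH1*, the first enzyme of glutathione synthesis, −1.77 ± 0.16.

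Few genes of ribosomes and protein turnover were called, in each list a smaller share than the 17.7% of all features called in either direction. All of these calls were higher, and 7.62% of all features were called higher. Only the mitochondrial ribosomal proteins had a larger share than that. Of 127 cytosolic ribosomal protein genes 118 had a value above 0 (median 0.33), 4 were called higher and none was lower. *RPS9A* and *RPS22B* gave 8444, 9099.8 and 8735 in *com2*Δ cells, against 1893, 1540.5 and 935 in wild-type cells and, for *RPS22B*, 11639, 11053 and 12622 in *com2*Δ cells, against 1969, 2830.5 and 1229 in wild-type cells (2.65 ± 0.20 and 2.63 ± 0.23). Each has a near-identical copy elsewhere in the genome, so which copy gave the signal is uncertain. Mitochondrial ribosomal protein genes had 8 higher of 66 and none lower (median 0.64), with *RSM27* and *MRPS16* at 1.42 ± 0.13 and 1.32 ± 0.18. Among 58 ribosome biogenesis factors 3 were higher and none was lower (median 0.43), with *NOP6* at 1.96 ± 0.10. The proteasome list held 1 higher gene of 33, *RPN11* (1.05 ± 0.08), at a median of 0.55, and subunits of the RNA polymerases and aminoacyl-tRNA synthetases held no call among 31 and 18.

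**Figure D4:**
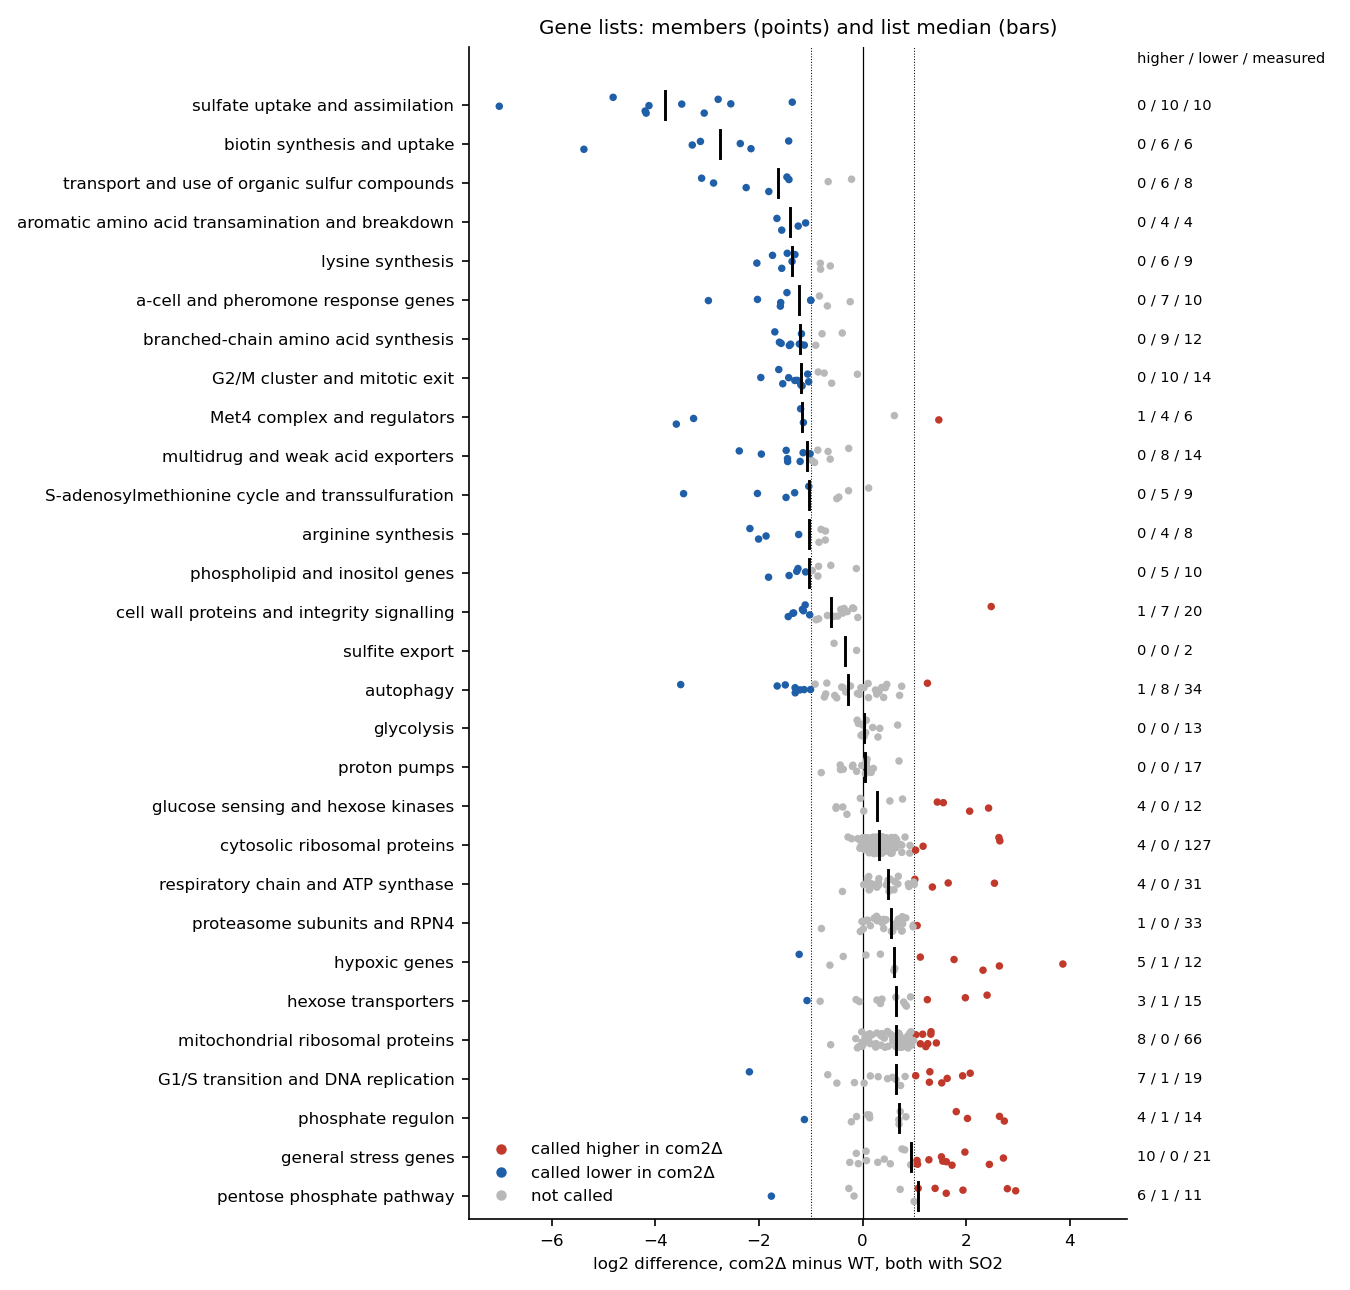
Log2 difference of *com2*Δ minus wild-type cells, both with SO2 (horizontal axis), for the members of selected gene lists (points) with the list median (bar), sorted by median; dotted lines mark 2-fold, and the numbers at the right give the members called higher, called lower and measured. Sulfate assimilation and biotin genes lie at the low end, at medians of −3.81 and −2.75, and general stress and pentose phosphate genes at the high end, at 0.93 and 1.07.

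The lists together covered 117 of the 432 higher and 151 of the 569 lower features, and 1082 of all 5667. Of the called features, 23 higher and 15 lower were probe sets with no gene listed. Intensities stayed at or below the background of deleted genes in both strains for 30 higher and 16 lower features, whose folds rest on dim signals. The same holds on 1 side for *DAK2*, *PHM6*, *YIR042C*, *MHT1*, *IRC15* and *YNL277W-A*, whose dimmer strain lay at or below 152 on all 3 arrays with SO2. Wild-type means with SO2 of *SOL4*, *FMP48*, *IZH4* and *GND2* (128, 140, 128 and 152) also lay at or below this mark, though not every array did. Wild-type arrays of *CDC21* lay on both sides of it. The folds of these genes rest on dim signals too. The arrays of the strains overlapped for 2 of the 1001. Outside the lists, *PIP2*, a factor of the oleate response that was chosen after its values were seen, had 953, 791 and 1000.1 in *com2*Δ cells, against 5504, 5028 and 5906 in wild-type cells (−2.59 ± 0.10).

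The strain difference under SO2 was set against the one without it, in separate arrays, to see which genes differed without the stress. Without SO2, 20 features (0.353%) were higher and 20 (0.353%) lower in *com2*Δ cells, 40 in all (0.706%), against 1001 with SO2. The third wild-type array without SO2 stood apart from its replicates, and without it 74 were called. Of the 432 higher with SO2, 6 were also higher without it, which is 1.39% of these and 30.0% of the 20. Of the 569 lower, 8 were also lower without SO2, or 1.41% and 40.0%. When single arrays were left out, the count of 6 ranged over 5 to 11 and that of 8 over 4 to 13. The 432 had a median log2 difference of 0.001 without SO2 and the 569 one of −0.071.

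The interaction was called for 990 of 5667 features (17.5%). It was called in the same direction for 346 of the 432 higher features (80.1%) and for 441 of the 569 lower ones (77.5%), a count that shares its arrays with SO2 with the comparison above. Over the higher features the median of mean intensities with SO2 was 1894 in *com2*Δ cells and 684 in the wild type, and 1486 and 1582 in the same strains without it. Over the lower features it was 1060 and 3001 with SO2, and 1243 and 1270 without it. In both sets the *com2*Δ cells with SO2 were thus nearer to the cells without SO2 than the wild-type cells with SO2 were, as medians of features and with no test.

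**Figure D5:**
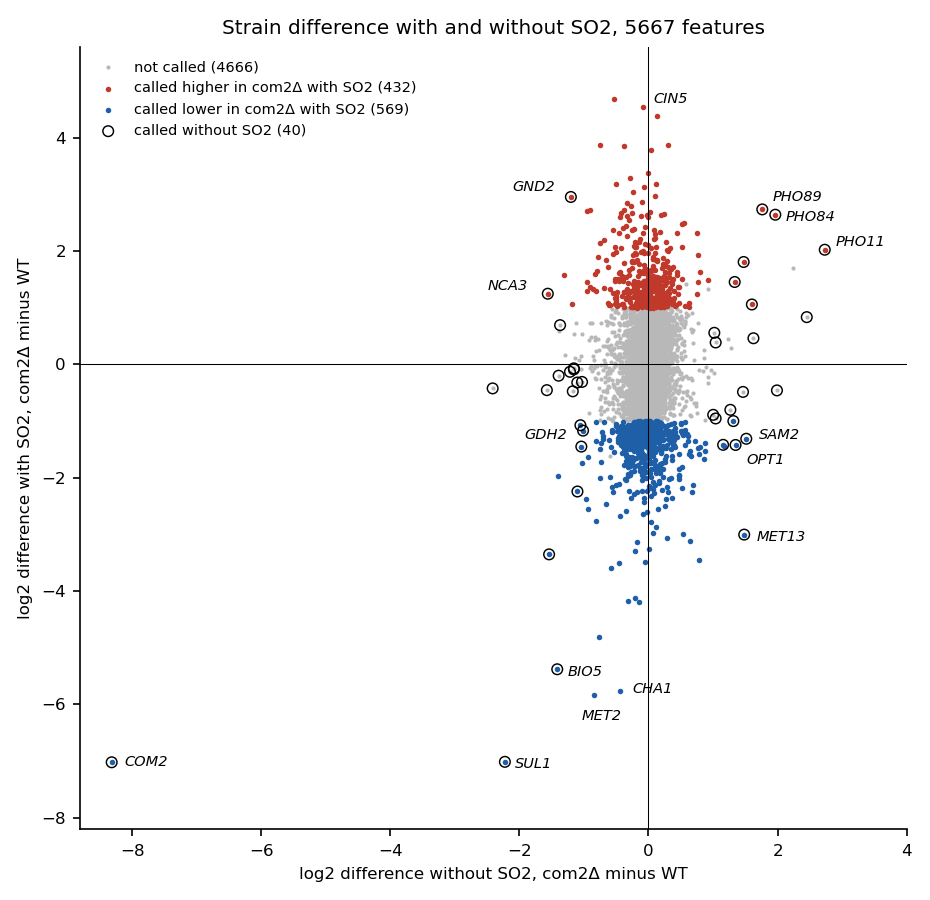
Log2 difference of *com2*Δ minus wild-type cells with SO2 (vertical axis) against that without SO2 (horizontal axis) for 5667 features, each from 3 arrays per group; colours mark features called with SO2 and circles the 40 called without it. Most coloured points lie near 0 on the horizontal axis; *COM2* and *SUL1* lie at the lower left, phosphate genes at the upper right, and *GND2* and *MET13* in opposite corners.

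Part of the phosphate regulon was higher with and without SO2. This regulon serves the uptake and release of phosphate under the control of Pho4 and the kinase Pho85. *PHO84*, the high-affinity phosphate transporter, had 6784, 9355 and 8795 in *com2*Δ cells, against 1311, 1493 and 1176 in wild-type cells with SO2 (2.64 ± 0.20), and 11948, 9427 and 9259 in *com2*Δ cells, against 3528, 2323 and 2138 in wild-type cells without it (1.97, standard error 0.20). *PHO89*, *PHO11* and *PHM6* were also higher in both, with log2 differences of 2.73, 2.02 and 1.81 under SO2 and 1.76, 2.73 and 1.47 without it. None of these 4 had a called interaction at the 2-fold limit. In the list 4 of 14 were higher and 1, the vacuolar phosphatase gene *PHO8*, was lower under SO2, and without SO2 5 were higher, the fifth being *PHO5* (2.45), which had 0.83 with SO2 and a called interaction of −1.62. *PHO5* under SO2 was named after its values were seen.

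Besides *COM2* and *SUL1*, the genes lower with and without SO2 were *BIO5*, *DAL80*, *GDH2*, *HXT5*, *IRC15* and the reading frame *YNL277W-A*. Without SO2, *DAL80* averaged 31.3 in *com2*Δ cells and 92.2 in the wild type, both below the background of deleted genes. Its difference without SO2 thus rests on dim signals. The 3 *com2*Δ arrays of *BIO5* without SO2 lay below this background as well. *BIO5* had 132, 142 and 143 in *com2*Δ cells, against 348, 399.9 and 365 in wild-type cells without SO2 (−1.41), a smaller difference than under SO2, and *GDH2* had 3628, 3402 and 2892 in *com2*Δ cells, against 7371, 6306 and 6320.0 in wild-type cells (−1.01). The interaction was not called for *GDH2* and *HXT5* (−0.16 and −0.02, adjusted p = 0.547 and 0.97 from limma), nor for *IRC15*, where it passed the false discovery rate but not the 2-fold limit (−0.41, adjusted p = 0.0454 from limma). *COS12* and *YIR042C* completed the higher genes, at mean intensities of 33.0 and 215 in *com2*Δ cells, against 11.8 and 103 in the wild type, with SO2. *COS12* lay below the background of deleted genes in both strains and was not called with 16 added to each intensity (0.801) or after quantile normalization (0.959). *YIR042C* was not called in these fits either (0.952 and 0.977), nor without the first wild-type array (0.956) or the first *com2*Δ array (0.937) with SO2.

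A further 7 genes were called in opposite directions. *GND2* was higher with SO2 and lower without it, where it had 311, 237 and 303 in *com2*Δ cells, against 712, 545 and 701 in wild-type cells (−1.202), and so was *NCA3*, a gene of the SUN family (1.25 and −1.56). *MET13*, *SAM2*, *PSD1*, *OPT1* and *YHP1* were lower with SO2 and higher without it. *SAM2* had 4478, 4309 and 4272 in *com2*Δ cells, against 1313, 1259.5 and 2134 in wild-type cells without SO2 (1.52), and *MET13* 1192, 1784 and 1419 in *com2*Δ cells, against 270.2, 545 and 938 in wild-type cells (1.48). *OPT1*, an oligopeptide and glutathione transporter, had −1.42 with SO2 and 1.35 without it. *YHP1*, a homeobox repressor, lay at the limit under SO2 (−1.001) and was not called in 7 of the other fits. The count of 7 was between 3 and 15 when single arrays were left out.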

How the data were processed

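RNA was measured on 12 Affymetrix Yeast Genome 2.0 arrays, 3 for each of 4 groups (*com2*Δ and wild-type cells, with and without SO2), named by the labels as biological replicates. The deposited intensity values were made by the authors, according to the study's methods with dChip (invariant set normalization between arrays and a model of perfect match probes only), with detection calls from MAS 5.0; the labels name MAS5 alone. The methods describe fewer arrays and another labelling kit than the labels, so which normalization made these values is not certain. The deposited intensities are linear, with a floor of 1 that 9 to 14 probe sets per array reach, and log2 was taken here. Detection calls were not applied.

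Of 5716 probe sets, 5498 were listed with 1 gene, 218 with none and none with several, and 12 symbols were updated. Where a gene had several probe sets (47 genes), its brightest was kept, which left 5667 features. All 12 arrays were fitted with 1 mean per group in limma 3.58.1 (R 4.3.3; 8 residual and 3.24 prior degrees of freedom), and p-values were adjusted by Benjamini-Hochberg over all features. Calls required 2-fold or more, p below 0.05 and a false discovery rate below 10%. Python 3.11.15 with numpy 2.4.6, pandas 2.3.3 and matplotlib 3.10.9 served for tables and plots. On simulated data for the SO2 contrast over 5667 features, 99 of 100 genes changed by a log2 of 1.5 and 100 of 100 changed by 3 were called. The number of arrays limits the precision, since array intensities carry no read depth.

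The genes named were *COM2*, the 12 highest and 12 lowest called genes whose arrays did not overlap, up to 4 members of each list with the largest differences, the genes deleted in both strains and the neighbours of *COM2*; other genes are marked where they appear, or are further list members named, after their values were seen, to complete a count or as markers and regulators. The comparison and the gene lists were chosen with earlier results of these data known. The fit was repeated with a block for the replicate number, without single arrays, after median centring or quantile normalization, with an offset of 16, with 2 filters on dim features, on the 6 arrays with SO2, with trended robust variances, with every probe set, with array weights and at 3 further thresholds. Promoter sequences were not used here.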

Additional observations from a re-analysis of the deposited data

Results flagged for a closer look

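The following results are listed because the strain difference under SO2 differed from that without SO2 by the interaction in limma. Each value is the log2 difference of *com2*Δ minus wild-type cells with SO2, minus the same without SO2. No outlier test of single values was run, since the groups hold 3 arrays. The arrays that stood apart from their replicates, the second of each strain with SO2 and the third of the wild type without it, enter every value.

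For *COM2* itself the interaction was 1.295 ± 0.17 (SE), and with SO2 it averaged 19.5 in *com2*Δ cells, against 2538 in the wild type, while without SO2 these means were 10.6 and 3366. The mutant levels lay below the background of deleted genes in both conditions.

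Among the genes highest in *com2*Δ cells under SO2, the interaction was 5.21 for *YER053C-A*, 4.62 for *CIN5*, 4.26 for *FMP48*, 3.58 for *IZH4*, 4.62 for *CYC7* and 4.24 for *SFC1*. It was 3.73 for *TAT1*, 3.39 for *YER187W*, 3.59 for *HSP30*, 3.06 for *BOP2*, 3.68 for *ALD6* and 3.203 for *GOR1*.

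For those lowest it was −4.79 for *SUL1*, −4.996 for *MET2*, −5.32 for *CHA1*, −3.97 for *BIO5*, −4.05 for *SUL2* and −4.05 for *MET5*. It was −3.87 for *MET10*, −3.92 for *MET1*, −3.02 for *MET32*, −3.06 for *ATG1*, −3.44 for *MET3* and −4.23 for *STR3*.

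The genes called in opposite directions had 4.16 (*GND2*), 2.81 (*NCA3*), −2.32 (*YHP1*), −2.83 (*SAM2*), −2.58 (*PSD1*), −2.77 (*OPT1*) and −4.49 (*MET13*). Among genes lower in both conditions *YNL277W-A* had −1.14 and *DAL80* −1.81, the latter with means below the background of deleted genes in both strains without SO2. Of 249 other genes, which came from the rule or were added after their values were seen, 165 had a called interaction, against 17.5% of all features. Most of these genes were picked for large differences under SO2, and the interaction uses the same arrays, so the choice of genes largely fixes this count.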

How the results depend on the processing

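For 292 genes, taken from the naming rule or added after their values were seen, 23 other fits were compared with the main one. No gene called in the main or the other fit reversed its direction. Sign changes of genes called in neither were not counted, and uncalled genes did change sign, among them the genes deleted in both strains. None of the 24 genes at the extremes lost its call in a fit that held it. Genes that a filter on dim features left out were not compared in that fit. Of the 217 called, 20 lost their call in at least 1 fit, and 20 others gained one. When single arrays were left out, 964 to 1097 features were called between the strains under SO2, 404 to 492 higher and 557 to 611 lower in *com2*Δ cells. The number that also had a called interaction was 787 and ranged over 728 to 873, and the number called without SO2 was 40 and ranged over 27 to 74, the last without the third wild-type control array. Array weights, whose estimate did not fully converge, gave 94 calls without SO2, and 514 higher and 567 lower with it, sharing 878 of the 1001. Without the 25% dimmest features 277 of 4250 were higher and 398 lower, 15 were called without SO2, and 537 had a called interaction. With an adjusted p under 0.05 and no fold limit, 1696 were higher and 1834 lower (3530 in all), 66 were called without SO2 and 2427 had a called interaction. Median centring moved the median of all features to 0.076 and the higher share of calls to 52.1%, against 43.2%. The replicate numbers did not pair the arrays with SO2 (correlations of same-numbered deviations −0.202, −0.188 and 0.008). With the number as a replicate block 433 features were higher and 569 lower, 39 were called without SO2 and 786 had a called interaction, and the block called all of the 1001 the same way. Of the list medians over these settings, 1455 moved by less than the spread between replicates and 106 by more. The arrays bear on 1 mutant strain at 1 time and 1 dose, levels near the background of deleted genes give uncertain folds, and probe sets of near-identical genes may read each other's RNA.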

Other observations

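Further gene groups held mixed calls under SO2. In purine synthesis *ADE2* and *ADE13*, enzymes of the pathway, were higher in *com2*Δ cells (1.05 ± 0.12 and 1.003 ± 0.08, log2 ± SE), and *BAS1*, the activator of purine and histidine genes, was lower, with 2366, 2757 and 2270.5 in *com2*Δ cells, against 6379.7, 6431 and 6709 in wild-type cells (−1.41 ± 0.12). *ADE2* and *ADE13* lost their call in 3 of the other fits each. In pyrimidine synthesis 3 of 11 genes were higher and 1 was lower: *FUR4*, the uracil permease, and *URA1* had 1.33 ± 0.20 and 1.303 ± 0.10, and *URA10*, a minor orotate phosphoribosyltransferase, −1.49 ± 0.24. In heme synthesis *HEM13* and *HEM12* were higher (1.11 ± 0.26 and 1.03 ± 0.12) among 8, *HEM12* not without the second *com2*Δ array with SO2 (0.987).

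Thiamine and pyridoxine genes had 3 of 15 higher and 3 lower. *PHO3*, a phosphatase that acts on thiamine phosphates, had 3356, 4663 and 3911 in *com2*Δ cells, against 806, 693 and 609 in wild-type cells (2.497 ± 0.15), and *THI4*, a thiazole synthase, 1.47 ± 0.19. *SNO1*, of pyridoxine metabolism, was lower (−1.47 ± 0.15). In the list of folding in the endoplasmic reticulum *MPD1*, a disulfide isomerase, was higher (1.48 ± 0.14) and *HAC1*, the factor of the unfolded protein response, was lower, with 3662, 3866 and 3104 in *com2*Δ cells, against 9838, 12262 and 9127 in wild-type cells (−1.55 ± 0.17). The arrays of *HAC1* did not overlap between the strains. These were the only calls among 10 genes of that list, near the 17.7% of all features called in either direction. In the peroxisome list *SPS19*, a dienoyl-CoA reductase, was higher (2.38 ± 0.19), and *DCI1*, *TES1* and *FAA2* were lower (−1.401 ± 0.21, −1.22 ± 0.20 and −1.01 ± 0.20). *FAA2* lost its call in 7 of the other fits, among them that without the second *com2*Δ array with SO2 (−0.876). *IME1*, the inducer of meiosis, was higher (1.304 ± 0.30) among 12 early meiosis genes, of which *HOP1* was higher (1.16 ± 0.23, not called without the first *com2*Δ array with SO2 at 0.976, and dim in both strains) and *RED1* lower (−1.33 ± 0.19).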
